A study of Mus musculus with 15 samples.

Results

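The genes described here are 84 of the 27128 gene names measured in OCT4-GFP-positive mouse testis cells, labelled as spermatogonia, whose transcripts were abundant 3 days after birth and low at both later ages. They were chosen by their group means: a mean signal of at least 10 at 3 days post partum (3dpp) in both genotypes, and a 3dpp mean at least 3 times the 7dpp mean and at least 3 times the adult mean within each genotype. Histone genes and 11 other named genes were left out by name, and 5 of these (Id4, Etv5, Bcl6b, Lhx1 and Etv4) met the numeric rule. The signal of every gene at 3dpp against the later ages is therefore given as a description, with no test. Of the 84 genes, 74 have established names and 10 carry names of provisional gene models, which are counted but not described one by one. Some of these 10 have since been named in RefSeq, as Smim22, Elfn1, Fam234b and Carmil2.

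The 15 libraries came from cells sorted by flow cytometry for GFP expressed from the promoter of Pou5f1, the gene that encodes OCT4. All donors carried this transgene, so a library reports whichever testis cells were fluorescent and not one defined stem cell state. Wild type libraries (WT, titled Og2 in the labels) numbered 3 at 3dpp (libraries 13, 14 and 15), 2 at 7dpp (2 and 3) and 2 in adults of 2 to 3 months (7 and 9). Libraries from Akt1s1 null mutants (KO) numbered 2 at 3dpp (16 and 18), 3 at 7dpp (4, 5 and 6) and 3 in adults (10, 11 and 12). Akt1s1 encodes PRAS40, an AKT substrate that binds and restrains the mTORC1 kinase complex. Nothing in the labels ties the libraries of a group to different animals. The p-values therefore reflect the variation among these libraries, part or all of which may be technical.

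Akt1s1 itself was still detected in the KO libraries but was lower at each age. Its 3dpp signal was 35.2 and 33.4 in KO and 52.4, 51.0 and 49.4 in WT, a log2 difference of -0.56 ± 0.10 (SE; limma adjusted p = 0.00653). Column totals ran from 896543 to 1183294, the 2 highest being those of the KO libraries at 3dpp, and the sequencing depth is unknown. Summed markers of other cells differed between libraries: Sertoli cell markers summed to 424 in KO library 16 and to between 1033 and 1688 in the other 3dpp libraries, and spermatid markers summed to between 2247 and 11157 in adults and to no more than 35.1 at the younger ages. Pou5f1 had a signal of 141 to 234 at 3dpp, 255 to 945 at 7dpp and 139 to 433 in adults, and at 7dpp it was lowest in KO library 5. In these bulk samples, fewer cells of a type and less RNA per cell cannot be told apart.

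In the mouse testis, gonocytes resume division soon after birth and settle on the basement membrane, where some form the first stem cell pool and others proceed towards differentiation. Glial cell line-derived neurotrophic factor (GDNF) from Sertoli cells acts on germ cells through the co-receptor GFRA1 and the receptor tyrosine kinase RET. Signalling downstream of RET through ERK and AKT induces transcription factors such as ETV5 and EGR2 and feedback inhibitors of the Sprouty family. Undifferentiated spermatogonia express GFRA1 and lose it as they differentiate.

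The promoter windows of 4 of the genes are printed because of what they carry or how they lie: Gfra1, the GDNF co-receptor gene, Egr2, a signal-induced transcription factor gene, and Tmc6 and Tmc8, a pair of neighbouring transmembrane channel-like genes on opposite strands. Each window runs from 250 bases before to 50 bases after a RefSeq start site on GRCm38.p6 (mm10), printed 5′ to 3′ on the strand of the gene. The windows lie at chr19:58455349-58455648 on the minus strand for Gfra1, chr10:67537619-67537918 on the plus strand for Egr2, chr11:117780643-117780942 on the minus strand for Tmc6 and chr11:117782047-117782346 on the plus strand for Tmc8. Capitals mark matches, on either strand, to the ETS core CCGGAA in Gfra1, the CArG box in Egr2, and the GC box GGGCGG and the E-box CACGTG in Tmc6 and Tmc8.
Gfra1: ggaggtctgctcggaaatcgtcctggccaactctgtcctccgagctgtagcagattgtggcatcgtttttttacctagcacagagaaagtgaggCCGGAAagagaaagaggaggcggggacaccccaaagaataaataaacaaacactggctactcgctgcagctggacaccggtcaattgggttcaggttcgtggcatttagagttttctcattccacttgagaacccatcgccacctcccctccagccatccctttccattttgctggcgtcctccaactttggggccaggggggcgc
Egr2: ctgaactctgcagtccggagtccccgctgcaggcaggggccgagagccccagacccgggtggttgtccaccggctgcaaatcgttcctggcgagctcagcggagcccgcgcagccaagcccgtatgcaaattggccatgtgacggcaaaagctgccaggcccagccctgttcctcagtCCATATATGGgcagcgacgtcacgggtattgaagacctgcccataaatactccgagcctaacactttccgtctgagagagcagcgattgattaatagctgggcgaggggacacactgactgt
Tmc6: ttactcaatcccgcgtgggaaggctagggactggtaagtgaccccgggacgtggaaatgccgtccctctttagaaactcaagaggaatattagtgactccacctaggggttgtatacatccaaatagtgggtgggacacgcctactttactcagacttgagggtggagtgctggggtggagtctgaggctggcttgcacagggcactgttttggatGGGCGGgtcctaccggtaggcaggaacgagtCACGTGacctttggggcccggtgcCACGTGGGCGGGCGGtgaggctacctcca
Tmc8: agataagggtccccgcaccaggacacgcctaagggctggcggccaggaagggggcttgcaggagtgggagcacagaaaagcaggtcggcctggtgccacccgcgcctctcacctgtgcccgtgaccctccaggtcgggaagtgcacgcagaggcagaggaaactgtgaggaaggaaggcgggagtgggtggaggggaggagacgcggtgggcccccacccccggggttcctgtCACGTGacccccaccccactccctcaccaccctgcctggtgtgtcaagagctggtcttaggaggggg

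The Gfra1 window held 1 ETS core, a sequence found in 14.98% of 32544 distinct promoter windows of this length. The Egr2 window, 1 of 5 listed for that gene, held 1 CArG box, the site of serum response factor, which occurs in 1.64% of the windows. Tmc6 held 3 GC boxes and 2 E-boxes, of which 1 E-box and 2 GC boxes overlap in a single run of capitals, and Tmc8 held 1 E-box. GC boxes occur in 35.88% of the windows and E-boxes in 7.17%. The TATA box TATAAA and the AP-1 site TGANTCA were also searched, with 0 matches in the 4 windows and matches in 13.57% and 7.79% of all windows. A window was available for 53 of the 84 genes (63.1%), under the 80% needed for a comparison of the whole set, so that check is void. These matches describe letters, not binding.

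The pattern that chose the genes was uniform across libraries. In 83 of the 84 genes every 3dpp library lay above every library of both later ages, the exception being a provisional model. The median signal of the 84 genes was 32.1, 36.3 and 21.6 in the WT libraries at 3dpp and 33.3 and 36.4 in the KO libraries. It was 3.83 and 5.06 in WT, with 3.95, 9.54 and 7.35 in KO at 7dpp, and between 2.12 and 3.00 in the 5 adult libraries. The signal of the genes together made up 0.260% to 0.454% of a library at 3dpp, 0.0521% to 0.134% at 7dpp and 0.0349% to 0.049% in adults. "Largely confined" holds as a proportion rather than an absence: 30 of the 84 had a mean of 10 or more in at least 1 later group, 54 had every later mean under 10, and 1 had every later mean under 1.

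**Figure D1:**
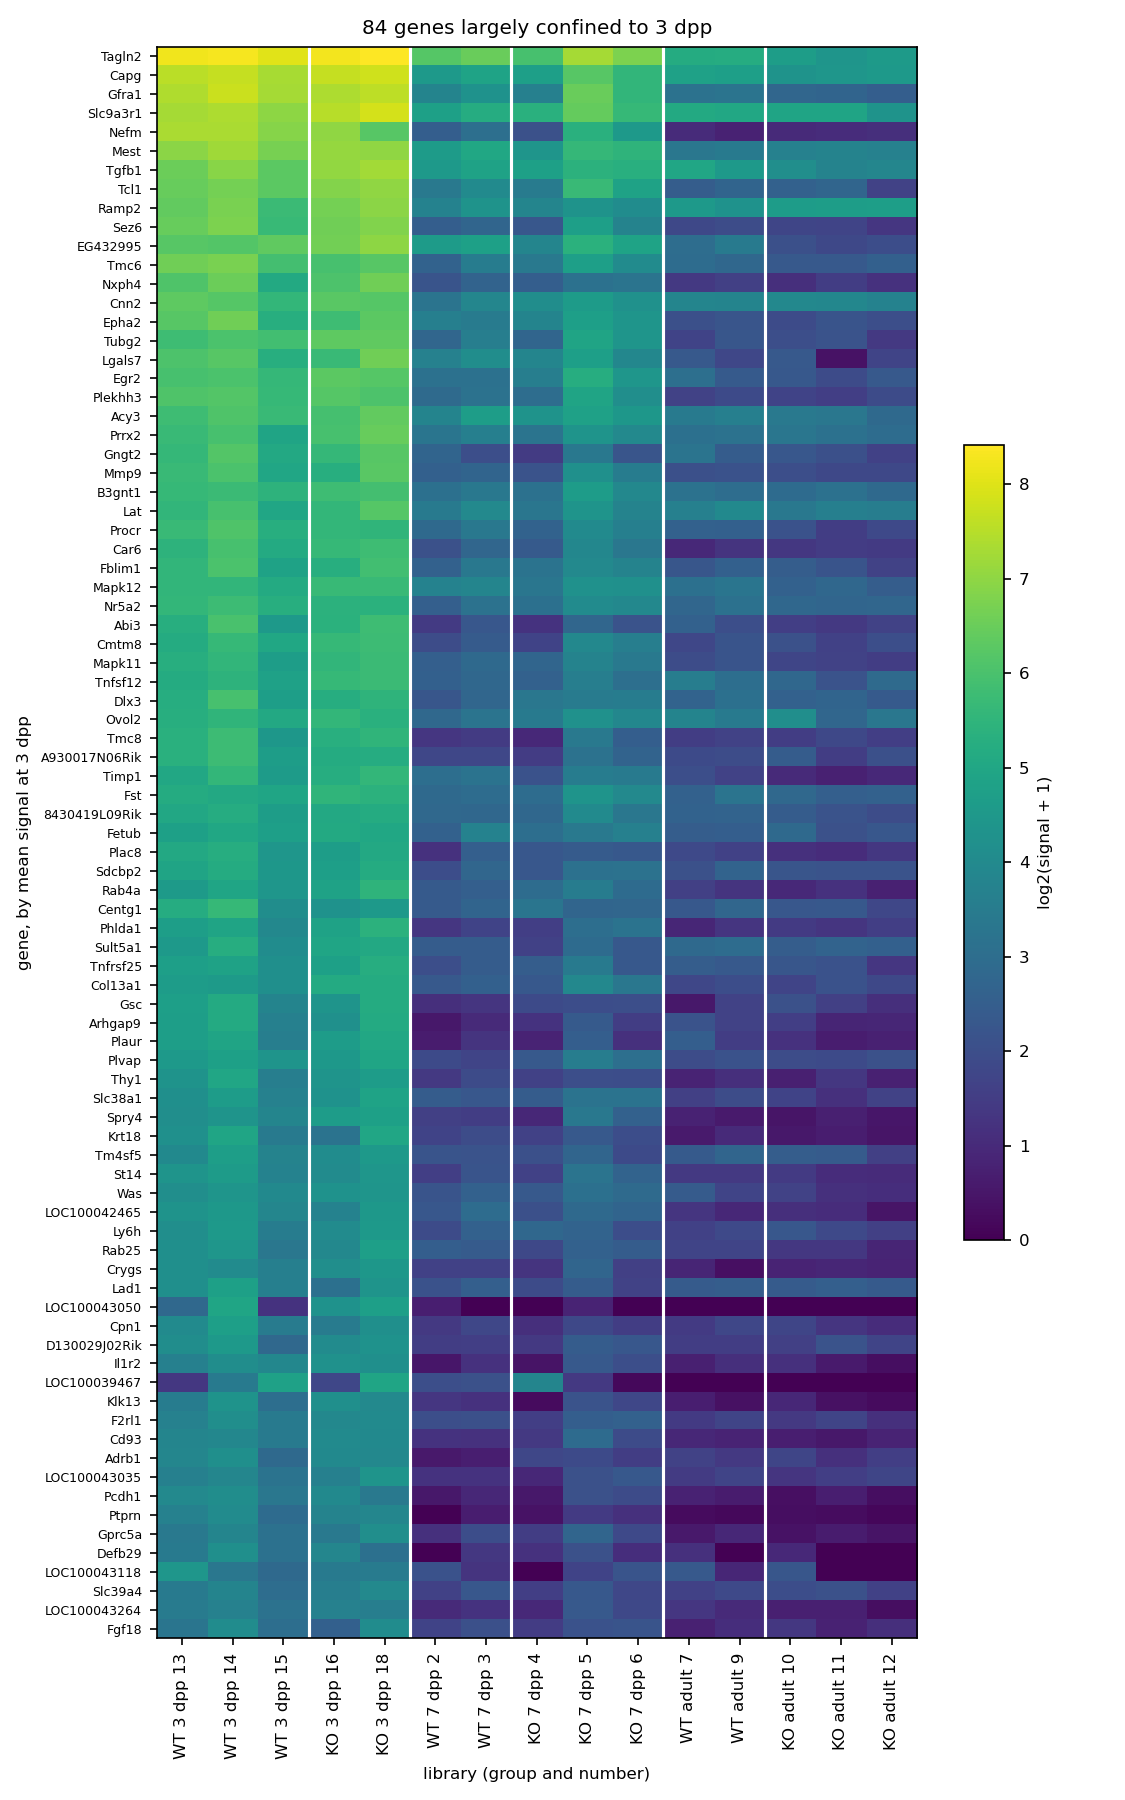
Heat map of log2(signal + 1) for the 84 genes (rows, ordered by mean signal over the 5 libraries at 3dpp) in the 15 libraries (columns, by group and library number). Every row except 1 is brightest in all of the first 5 columns, and the KO libraries 5 and 6 at 7dpp are brighter than the other libraries of that age.

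The ratio of the 3dpp to the 7dpp mean had a median of 6.81 in WT and 4.50 in KO, and the ratio of the 3dpp to the adult mean had a median of 9.43 in WT and 14.7 in KO. Ratios of at least 10 between 3dpp and 7dpp were reached by 21 genes in WT and 7 in KO, and between 3dpp and adult by 42 and 53. The genes nearest the fold limit on the inside were a gene under a provisional name (Smim22 in RefSeq) with a smallest ratio of 3.01, Tagln2 with 3.02, Centg1 with 3.03 and Lad1 with 3.05. On the outside lay Foxc2 at 2.997, Dmrt3 at 2.99, Tmem132e at 2.97 and Rdm1 at 2.96. At the limit on the 3dpp level, Slc39a4 at 10.0 and Gprc5a at 10.3 were kept, and T at 9.90, Rhbdl3 at 9.89 and Phf19 at 9.58 were not.

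By roles assigned by hand, the 74 named genes held 11 receptors or co-receptors and 5 secreted ligands or antagonists. Gfra1 was the most abundant of them: the 3dpp libraries held 169, 212 and 154 in WT and 164 and 192 in KO. At 7dpp it was 12.8 and 18.7 in WT, with 11.8, 89.7 and 45.4 in KO, and in adults it was 8.01 and 8.43 in WT, with 5.92, 5.49 and 4.78 in KO. Gfra1 thus had equal means in both genotypes at 3dpp (178 ± 30.5, SD, n = 3 in WT, and 178 ± 19.3, n = 2 in KO), and among the later libraries KO libraries 5 and 6 at 7dpp stood highest. Its ratio of 3dpp to 7dpp was 11.3 in WT and 3.63 in KO. Epha2, an ephrin receptor tyrosine kinase, had a mean of 69.6 ± 29.3 in WT and 66.1 ± 16.0 in KO at 3dpp and no more than 19.5 in any later group. Ramp2, an accessory protein of calcitonin-like receptors, kept a later mean between 15.7 and 24.8 and so had the smallest 3dpp to adult ratios of the receptors, 3.96 in WT and 4.50 in KO. Procr, the protein C receptor, Plaur, the urokinase receptor, and Tnfrsf25, a death receptor of the TNF family, had 3dpp means over the 5 libraries of 49.5, 24.3 and 26.9. The remaining receptors, among them the decoy receptor Il1r2, the protease-activated receptor F2rl1 and the adrenergic receptor Adrb1, had means between 11.5 and 15.5.

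Tgfb1, the founding member of its cytokine family, was the most abundant ligand gene. Its signal at 3dpp was 91.5, 119 and 77.2 in WT, with 131 and 151 in KO, and both KO libraries lay above all 3 WT libraries. It was 21.8 and 27.96 in WT, with 26.8, 41.9 and 38.8 in KO at 7dpp, and 30.9 and 21.9 in WT and 16.8, 12.7 and 13.4 in KO in adults. Nxph4, a secreted neurexin-binding protein, dropped further, from 68.1, 90.5 and 33.7 in WT and 66.2 and 94.6 in KO at 3dpp to between 1.19 and 1.99 in the adult libraries. Its 3dpp to 7dpp ratio was at least 11.5 in both genotypes. Fst, which encodes the activin antagonist follistatin, Tnfsf12, a TNF family ligand, and Fgf18, a fibroblast growth factor, had 3dpp means over the 5 libraries of 36.7, 41.2 and 10.7.

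Among 9 genes of intracellular signalling, Tcl1, a coactivator of AKT kinases, had a signal of 87.8, 101 and 77.9 in WT and 115 and 129 in KO at 3dpp. At 7dpp it was 9.50 and 15.1 in WT, with 10.4, 50.9 and 28.1 in KO, and in adults no library exceeded 5.75. As for Gfra1, KO libraries 5 and 6 were the highest after 3dpp. Spry4, a feedback inhibitor of receptor tyrosine kinase signalling, was 16.8, 19.7 and 13.1 in WT, with 24.4 and 26.4 in KO at 3dpp, 1.99 and 1.91 in WT and 0.911, 9.36 and 5.11 in KO at 7dpp, and 0.740 or less in adults. Phlda1, a pleckstrin homology domain protein induced downstream of ERK, had means of 23.0 ± 7.78 in WT and 34.7 ± 10.1 in KO at 3dpp and of 1.87 ± 0.476 and 5.84 ± 3.41 at 7dpp. Slc9a3r1, a membrane scaffold protein, and the stress-activated kinase genes Mapk12 and Mapk11 had 3dpp means over the 5 libraries of 173, 45.4 and 41.2. Lat, an adaptor known from T cell receptor signalling, and Gngt2, a G protein gamma subunit, reached 51.5 and 54.7.

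**Figure D2:**
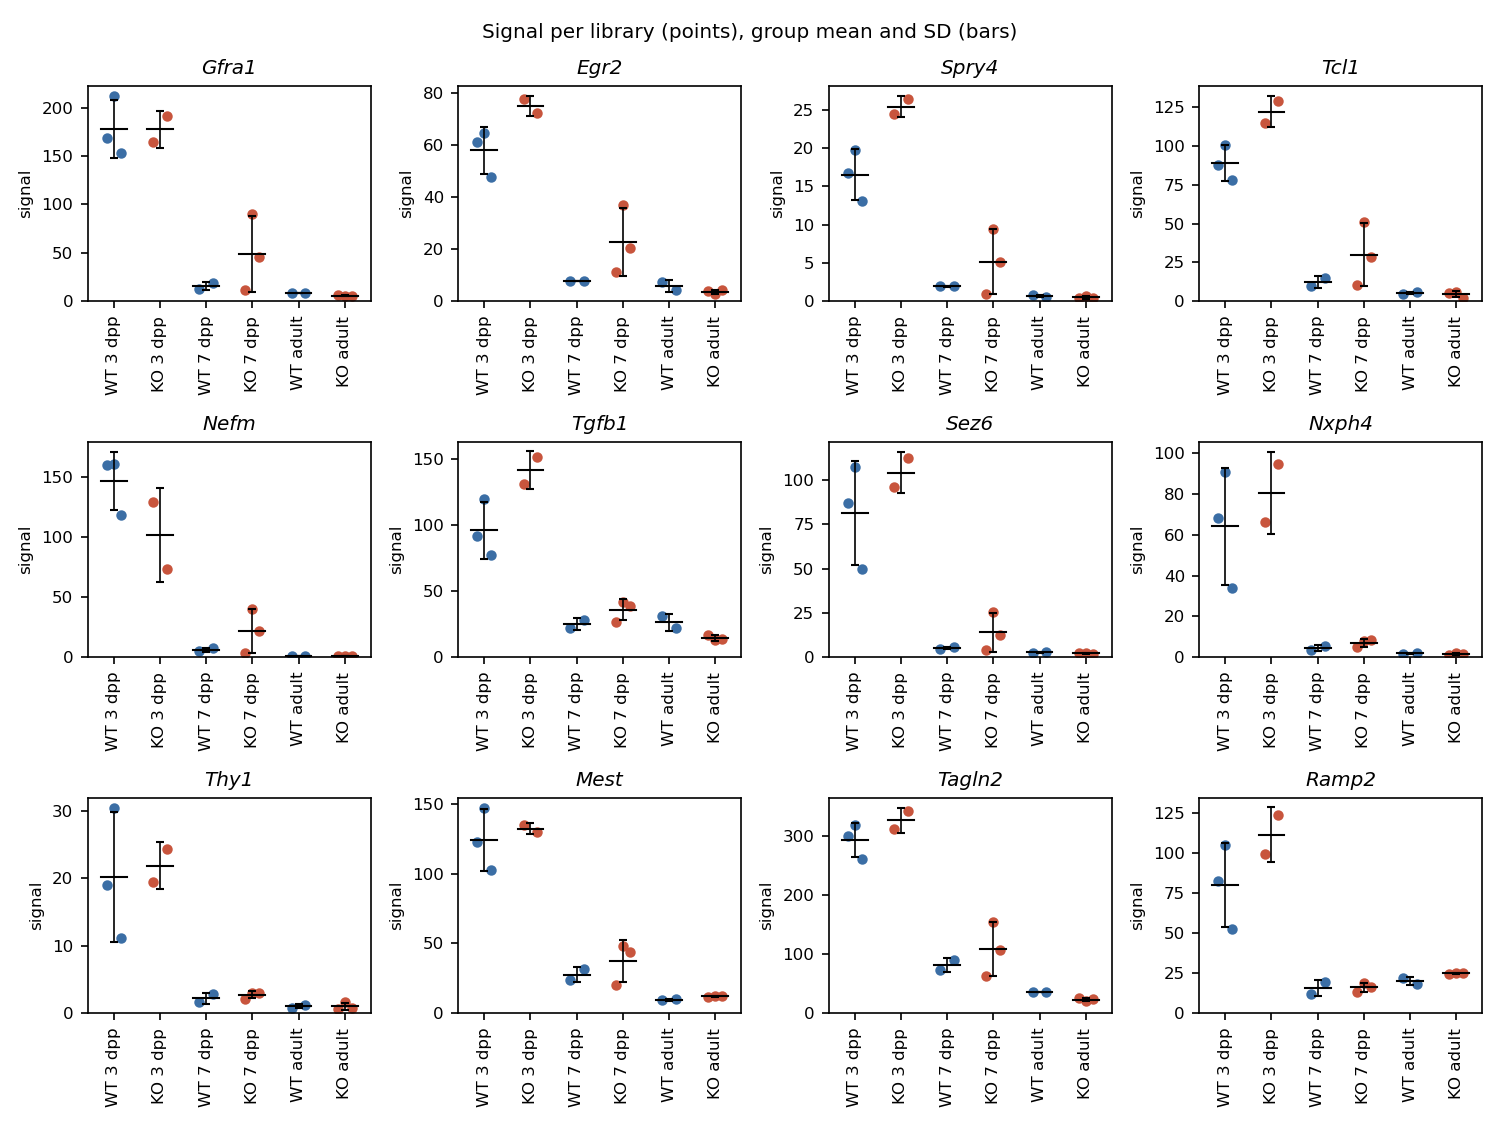
Signal of 12 of the genes in each library (points, WT blue and KO red), with the group mean (horizontal line) and SD (error bar), on linear axes from 0. All 12 are highest at 3dpp in both genotypes. For Gfra1, Tcl1, Spry4, Nefm and Sez6, KO libraries 5 and 6 at 7dpp lie above both WT libraries of that age while KO library 4 lies close to them, and Ramp2 shows the highest adult level relative to 7dpp.

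Of the 6 transcription factor genes, Egr2 was the most abundant at 3dpp, with 61.2, 64.8 and 47.9 in WT and 77.8 and 72.4 in KO. It was 7.86 and 7.73 in WT, with 11.1, 36.9 and 20.3 in KO at 7dpp, so all 3 KO libraries lay above both WT libraries at that age, and it was between 2.78 and 7.35 in adults. The homeobox genes Prrx2, Dlx3 and Gsc had 3dpp means over the 5 libraries of 58.2, 41.2 and 25.6. Nr5a2, a nuclear receptor gene, and Ovol2, a zinc finger factor gene of epithelial tissues, had means of 43.7 and 40.5, and both varied little between 3dpp libraries (highest over lowest 1.42 for each). Gsc was among the genes with the steepest drop, with a smallest ratio of 9.45 over both genotypes and both later ages.

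Cytoskeletal genes included the 2 most abundant of the 84. Tagln2, an actin-binding protein, had a signal of 299, 318 and 261 in WT and 311 and 341 in KO at 3dpp, and fell to 73.0 and 89.7 in WT and 62.2, 154 and 107 in KO at 7dpp and to between 20.03 and 35.9 in adults. Capg, an actin-capping protein, had a 3dpp mean of 182 ± 23.7 in WT and 214 ± 14.1 in KO. Tagln2 therefore remained well detected after 3dpp although it met the ratio limits. Nefm, the medium neurofilament chain, showed a far larger drop: 160, 161 and 119 in WT and 129 and 73.7 in KO at 3dpp, 4.77 and 7.40 in WT and 3.29, 39.7 and 21.8 in KO at 7dpp, and 1.22 or less in all adult libraries. The other genes of this kind were Cnn2 (calponin family), Fblim1 (filamin-binding), Tubg2 (a gamma-tubulin), Was and Abi3 (actin nucleation regulators), Arhgap9, Krt18 (a keratin) and Lad1 (a basement membrane zone protein), with 3dpp means over the 5 libraries between 16.5 and 69.4.

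Other genes encode proteins of the cell surface, of secretory granules or enzymes. Sez6, a neuronal transmembrane protein, had a signal of 87.0, 107 and 49.9 in WT and 96.0 and 112 in KO at 3dpp, 4.70 and 5.69 in WT and 3.85, 25.7 and 12.6 in KO at 7dpp, and 2.88 or less in adults. Ptprn, a protein of dense-core secretory granules, had means of 11.5 ± 4.57 in WT and 13.0 ± 0.638 in KO at 3dpp and a later mean of at most 1.09. Thy1, a surface protein used to enrich spermatogonial stem cells, was 19.05, 30.4 and 11.1 in WT, with 19.4 and 24.4 in KO at 3dpp and 3.03 or less in every later library. The named enzymes were led by Mest, an imprinted gene expressed from the paternal allele, with means of 124 ± 22.4 in WT and 132 ± 3.75 in KO at 3dpp, 27.6 ± 5.58 and 37.3 ± 15.1 at 7dpp, and 9.68 ± 0.723 and 12.1 ± 0.296 in adults. The 7 protease, inhibitor and matrix genes included Mmp9, a gelatinase, and Timp1, an inhibitor of metalloproteinases, with 3dpp means over the 5 libraries of 51.9 and 36.9.

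Several of the genes are also known from blood or endothelial cells, and the marker levels of those cells are given beside them. Of 8 macrophage markers 6 were in the files, and they summed to 64.6 in KO library 16 and to between 19.3 and 27.5 in the other 3dpp libraries, to between 9.20 and 22.3 at 7dpp, and to between 35.6 and 1039 in adults. Endothelial markers (6 of 7 in the files) summed to between 50.8 and 83.5 at 3dpp, 37.9 and 50.2 at 7dpp and 40.4 and 49.7 in adults. Endothelial markers were thus highest in the 3dpp libraries, and macrophage markers were highest in adult libraries, although KO library 11 of the adults (35.6) lay below KO library 16 of 3dpp. None of the 84 genes was in the Sertoli, Leydig, myoid, fibroblast, macrophage, endothelial or erythroid marker lists, and the part of those cells in the 3dpp levels was not tested.

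Within an age, many of the 84 genes ranked the libraries alike. At 3dpp WT library 15 was the lowest of the 5 libraries for 74 of the 84 genes, against 17.07% of all 17746 tested genes, and at 7dpp KO library 5 was the highest for 67 of 84, against 22.6% of all. WT library 14 and KO library 18 were the highest at 3dpp for 33 and 41 genes, against 20.48% and 23.27% of all. The highest 3dpp library exceeded the lowest by a median of 2.07 times. Among the named genes the ratio was smallest for Fetub (1.30), Tagln2 (1.31), Was (1.32) and Gfra1 (1.38), and largest for Krt18 (3.67), Lad1 (3.46), Fgf18 (3.23) and Prrx2 (3.00). Krt18, Lad1 and Fgf18 had their lowest 3dpp value in KO library 16 (8.33, 7.63 and 5.02), the library with the lowest Sertoli marker sum, and the part of that difference in these values was not tested. KO library 5 also had the lowest Pou5f1 signal at 7dpp (255). The summed markers of differentiating spermatogonia at 7dpp were 4532 in KO library 5, 4493 and 4253 in KO libraries 4 and 6, and 4333 and 5146 in the WT libraries, so KO library 5 lay within the range of the others.

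The rule set the same limits in both genotypes and did not compare them directly. Because a gene had to meet the limits in both, genes with a large difference between genotypes were less likely to be kept. The shares of all tested genes given beside the 84 carry no such limit, so they are not a like comparison. At 3dpp no gene of the 84 passed the test between KO and WT (0 of 84; limma on log2(signal + 1), adjusted over all tested genes, threshold 0.05), at an age when 10.3% of all tested genes passed. Of the 84 genes 2 had an unadjusted p under 0.05 (2.38%; 26.2% of all tested genes did), Tgfb1 with a log2 difference of 0.57 ± 0.22 (SE; adjusted p = 0.117) and Prrx2 with 0.70 ± 0.31 (adjusted p = 0.177). The Prrx2 difference was 0.39 without WT library 15 and 0.45 without KO library 18. The log2 difference was above 0 for 68 of the 84, with a median of 0.24 beside -0.04 over all tested genes. In 17 genes both KO libraries lay above all WT libraries (20.2%; 16.9% of all tested genes did so) and in 0 genes below (21.8% of all), the 17 including Tgfb1, Tcl1, Spry4, Egr2, Fst, Tnfsf12 and Capg. The median moved with single libraries. It was 0.05 without WT library 15, with 49 of 84 genes above 0, but 0.44 without WT library 14, with 78 above 0. It was 0.14 without KO library 18 and 0.39 without KO library 16, each of which left 1 KO library at 3dpp. When the libraries were set to equal totals, the median over all genes moved to -0.18 and that of the 84 to 0.06. The contrast with all genes depended on the fit. With only the 3dpp libraries in it, 0 of the 84 passed and 10 had an unadjusted p under 0.05 (limma). Of all 15634 genes then tested, only 41 passed as higher and 31 as lower. In the main fit of all 15 libraries the log2 difference of Gfra1 at 3dpp was 0.01 (95% interval -1.14 to 1.15). That fit pools the spread of the 6 groups, among them KO at the middle age, with Gfra1 at 11.8, 89.7 and 45.4. The interval therefore does not describe the 3dpp libraries alone, which ranged from 154 to 212 (highest over lowest 1.38).

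At 7dpp the rank of the libraries differed, and again none of the genes passed (0 of 84; 0.158% of all tested genes passed). The log2 difference between KO and WT was above 0 for 73 of the 84 genes, with a median of 0.55 beside 0.00 over all genes, and 20 of the 84 had an unadjusted p under 0.05 (23.8%; 7.48% of all tested genes did). The smallest adjusted p was that of Plvap, a protein of endothelial fenestrae, with 2.69 and 2.29 in WT and 4.15, 11.0 and 7.36 in KO and a log2 difference of 1.202 ± 0.28 (SE; limma adjusted p = 0.159). Egr2 differed by 1.28 ± 0.35 (adjusted p = 0.318) and Gfra1 by 1.198 ± 0.53 (adjusted p = 0.646), the intervals running from 0.53 to 2.04 and from 0.05 to 2.35. In 15 genes all KO libraries lay above both WT libraries (17.9%; 11.9% of all tested genes did so) and in 0 below (10.5% of all), the 15 including Egr2, Epha2, Fst, Adrb1, Dlx3, Plvap and Rab4a. The KO libraries were not alike: KO library 4 was the lowest of the 5 for 35 genes and WT library 2 for 39, beside 22.83% and 22.06% of all tested genes. Without KO library 4, 13 genes passed, all higher in KO, while over all 17688 genes then tested the number higher rose from 18 to 86 and the number lower from 10 to 20. The 13 were Gfra1, Nefm, Egr2, Spry4, Phlda1, Plvap, Cmtm8, Fst, Capg, Col13a1, Nr5a2, Plekhh3 and B3gnt1, and the median rose to 0.80. Without KO library 5, 0 passed, the median was 0.29 and 7 genes had an unadjusted p under 0.05. Leaving out WT library 2 left 1 WT library at 7dpp, so only the median is given, which was 0.32. Immediate early and dissociation stress genes also summed higher in KO (992, 1278 and 1270) than in WT (759 and 645) at 7dpp, with 21 of the 22 tested genes above 0. Erythroid markers (4 of 8 in the files) summed to 53.7, 46.4 and 25.8 in KO and 11.3 and 3.31 in WT, and all 14 Sertoli markers had a log2 difference above 0, with a median of 0.25, as had all 6 macrophage and all 6 endothelial markers (medians of 0.43 and 0.26). The part of these genes and cells in the 7dpp differences was not tested.

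In adults the differences were mostly in the other direction, and none of the genes passed (0 of 84; 0.27% of all tested genes passed). The log2 difference between KO and WT was below 0 for 65 of the 84 genes, with a median of -0.24 beside -0.03 over all genes, and 9 had an unadjusted p under 0.05 (10.7%; 11.8% of all tested genes did). Without WT library 9, which left 1 WT library in adults, the median was -0.15. Tgfb1 had a log2 difference of -0.83 ± 0.22 (SE; limma adjusted p = 0.143), Timp1 of -0.93 ± 0.36 (adjusted p = 0.304), Was of -0.76 ± 0.27 (adjusted p = 0.249) and Plaur of -1.15 ± 0.49 (adjusted p = 0.365). In 29 genes all KO libraries lay below both WT libraries (34.5%; 19.4% of all tested genes did so) and in 5 above (15.3% of all). The signals themselves were low, Timp1 being 3.08 and 2.14 in WT and 0.982, 0.698 and 0.950 in KO. Macrophage markers summed to 1039 and 337 in the adult WT libraries and to 275, 35.6 and 98.96 in KO, and spermatid markers to 11157 and 4982 in WT and to 4767, 2355 and 2247 in KO. Leydig cell markers summed to 5468 and 3818 in WT, with 2913, 83.4 and 1249 in KO, and Sertoli cell markers to 642 and 396 in WT, with 337, 87.6 and 214 in KO. Immediate early and dissociation stress genes summed to 1131 and 793 in WT, with 709, 387 and 484 in KO, so all of these sums were lower in every adult KO library than in both WT libraries. The part of those cells and genes in the adult differences was not tested. With quantile normalisation the median of the 84 was -0.06 and 35 genes were above 0.

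**Figure D3:**
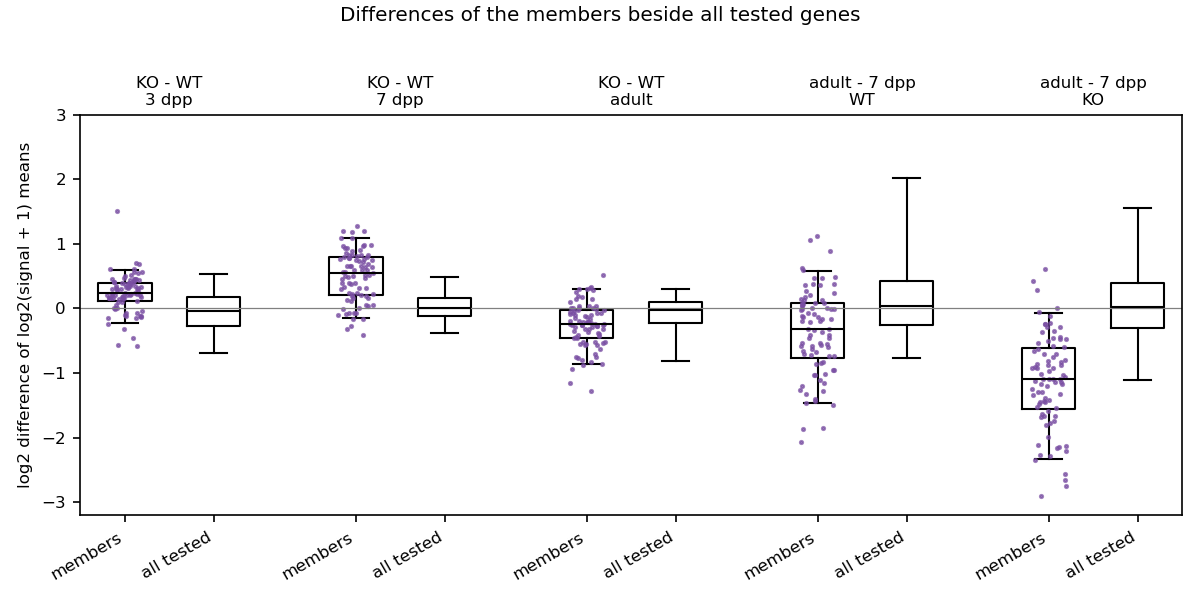
Log2 differences of mean log2(signal + 1) for the 84 genes (points) and box plots for the 84 and for all 17746 tested genes (box 25th to 75th percentile, line median, whiskers 5th to 95th percentile) in 5 comparisons. The 84 genes are centred at 0.24, 0.55 and -0.24 between genotypes at 3dpp, 7dpp and in adults, and at -0.32 in WT and -1.09 in KO between adults and 7dpp, while the medians of all genes lie between -0.04 and 0.04.

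With the genotype difference averaged over the 3 ages, 0 of the 84 genes passed (1.43% of all tested genes did). Phlda1 had the smallest adjusted p, with an averaged log2 difference of 0.68 ± 0.24 (SE; limma adjusted p = 0.198), and 5 genes had an unadjusted p under 0.05 (5.95%; 15.5% of all did). The change of the genotype difference from 3dpp to 7dpp passed for 0 genes (2% of all) and that from 3dpp to adult for 0 (1.01% of all), with 3 and 11 genes at an unadjusted p under 0.05 (3.57% and 13.1%; 19.6% and 17.5% of all). Tgfb1 came nearest, its genotype difference changing by -1.40 from 3dpp to adult (limma adjusted p = 0.0524). It was higher in both KO libraries than in all WT libraries at 3dpp, and lower in all KO libraries than in both WT libraries in adults.

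The difference between adults and 7dpp contains no 3dpp value, but the 3dpp libraries entered the estimate of the spread, and both later means entered the rule as upper limits. In WT, 10 of the 84 genes were lower in adults (11.9%; 12.2% of all tested genes were) and 0 were higher (17.8% of all), with a median log2 difference of -0.32. The median was -0.15 without WT library 3, -0.51 without WT library 2, -0.16 with libraries set to equal totals and -0.70 with quantile normalisation. The median over all genes moved with the scaling too, from 0.04 to 0.21 with equal totals and to -0.12 with quantile normalisation. Of the 10 lower genes, those with established names were Mest, Tagln2, Epha2, Rab4a, Lgals7, Car6, Timp1 and Plekhh3. Mest fell by 1.41 ± 0.30 on the log2 scale (SE; limma adjusted p = 0.00348), from 23.7 and 31.6 to 9.17 and 10.2. Lgals7, a galectin gene, changed by -1.85 ± 0.54 (adjusted p = 0.0195). Gfra1 in WT had a value of -0.84 ± 0.58 (adjusted p = 0.308).

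In KO, 52 of the 84 genes were lower in adults than at 7dpp (61.9%; 20.5% of all tested genes were) and 1 was higher (22.2% of all), with a median log2 difference of -1.09. The drop was led by Nefm at -2.91 ± 0.57 (SE; limma adjusted p = 0.00121), Lgals7 at -2.66 ± 0.44 (adjusted p = 0.000346), Gfra1 at -2.57 ± 0.48 (adjusted p = 0.000818) and Tcl1 at -2.35 ± 0.42 (adjusted p = 0.000662). Egr2 changed by -2.22 ± 0.31 (adjusted p = 0.000107) and Rab4a, a recycling endosome GTPase, by -2.17 ± 0.22 (adjusted p = 8.12e-06). The single gene that rose was Ramp2, by 0.61 ± 0.22 (adjusted p = 0.0413), from 13.2, 19.04 and 16.1 to 24.2, 24.9 and 25.3. The 10 genes that passed in WT also passed in KO, and 43 passed in KO and not in WT. That difference in number is not shown to be a difference between genotypes: the change of the genotype difference from 7dpp to adult, added as a test after the data had been seen, passed for 0 of the 84 genes and for 0% of all tested genes, with 26 of 84 (31.0%) and 2190 of 17746 (12.3%) at an unadjusted p under 0.05 and a smallest adjusted p of 0.207. Without KO library 5 the number lower in KO was 43, beside 3000 of all 17733 genes then tested. Without KO library 4 the number lower in WT was 17, beside 2378 of 17688. Leaving out WT library 2, 3, 7 or 9 leaves 1 library in a group, so only the median in WT is given. It was -0.51 without WT library 2, -0.15 without WT library 3 and -0.33 without WT library 7 or 9.

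**Figure D4:**
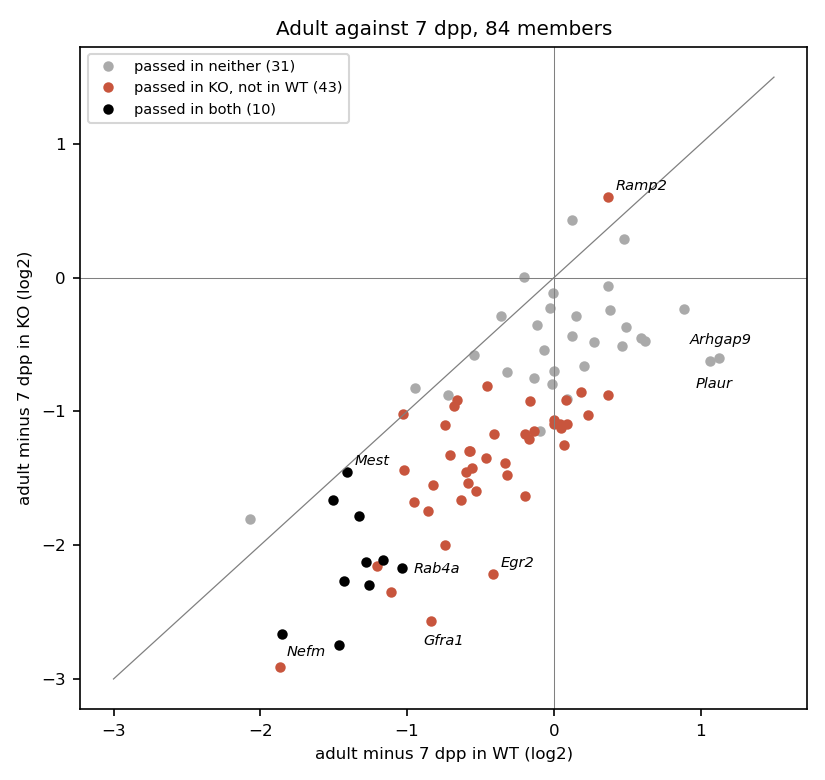
Log2 difference between adults and 7dpp in WT (horizontal axis) and in KO (vertical axis) for each of the 84 genes, coloured by the comparison in which it passed, with the line of equal values. Most points lie below the line, 10 genes passed in both genotypes and 43 in KO and not in WT, and Ramp2 is the gene that passed with a higher adult level.

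Of the 84 genes 9 were in any of 28 lists of pathway genes and cell markers (10.7%; 2.33% of all tested genes were), after the 5 genes left out by name although they met the numeric rule. These shares are not a like comparison. The lists were chosen with earlier results of these data known. The tested genes needed only a signal of 1 in 2 libraries, whereas the 84 needed a mean of 10 at 3dpp. The stem cell list held Gfra1 and Thy1, the list of RTK-ERK feedback targets Spry4, Phlda1 and Egr2, the TGF-beta list Fst and Tgfb1, the imprinted list Mest and the adhesion list Epha2, with Egr2 also an immediate early gene. Of the 16 tested RTK-ERK feedback targets 0 passed between genotypes at any age, with median log2 differences of 0.12, 0.68 and -0.15 at 3dpp, 7dpp and in adults beside -0.04, 0.00 and -0.03 over all genes. All 16 were above 0 at 7dpp, among them Dusp6, an ERK phosphatase gene, at 0.85 ± 0.27 (SE; limma adjusted p = 0.428) and Spry1, another Sprouty gene, at 0.81 ± 0.26 (adjusted p = 0.428). From 7dpp to adult, 11 of the 16 were lower in KO and 1 in WT, and 1 was higher in each. Their summed signal was 809 to 1138 at 3dpp, 197 and 222 in WT and 188, 561 and 370 in KO at 7dpp, and 134 to 158 in adults, so KO libraries 5 and 6 stood highest after 3dpp here too. Of the 21 tested stem cell genes 1 was higher and 1 lower in KO at 3dpp and 0 passed at 7dpp or in adults. Above 0 were 14 of the 21 at 3dpp, 20 at 7dpp and 4 in adults, with medians of 0.08, 0.57 and -0.13. Their summed signal at 7dpp was 930 and 1211 in WT, with 1090, 1576 and 1478 in KO libraries 4, 5 and 6. Ret, the signalling partner of GFRA1, differed by 0.96 ± 0.35 at 7dpp (adjusted p = 0.532). The markers of differentiating spermatogonia, the prospermatogonial genes and the piRNA pathway shared 0 genes with the 84. With 8, 10 and 12 tested genes, these lists are too small for that 0 to be informative.

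The genes were matched to RefSeq positions on GRCm38.p6 for 79 of the 84. Chromosome 11 held 13 of them (16.5%), beside 8.08% of the tested genes with a position. Several were immediate neighbours. Abi3 and Gngt2 overlap by 705 bases (chr11:95830072-95842476 and chr11:95841772-95845734), and Tmc6 and Tmc8 by 610 bases (chr11:117765985-117782193 and chr11:117781584-117793137). Tubg2 and Plekhh3 lie 891 bases apart (chr11:101155874-101161787 and chr11:101162679-101171378), and Mapk12 and Mapk11 lie 904 bases apart (chr15:89130584-89141577 and chr15:89142482-89149606). No other gene lies between the genes of these 4 pairs. In all, 11 neighbouring pairs lay within 500000 bases, the others with 3 to 18 RefSeq genes between them. How many such pairs all tested genes would give was not counted.

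The values of the neighbours are given side by side, since their age profile is what chose them. Tmc6 was 94.97, 105 and 59.1 in WT, with 61.2 and 73.6 in KO at 3dpp, where Tmc8 was 39.2, 53.7, 20.7, 38.4 and 44.3 in the same order. The log2 difference between KO and WT at 3dpp was -0.32 ± 0.34 (SE) for Tmc6 and 0.22 ± 0.52 for Tmc8. At 7dpp both were highest in KO library 5, at 25.7 for Tmc6 and 9.63 for Tmc8. Plekhh3 and Tubg2 were likewise highest at 7dpp in KO library 5, at 28.9 and 29.1, and Abi3 and Gngt2 at 5.79 and 9.45, as were 67 of the 84 genes. A correlation over all libraries is not given, because the age difference by which the genes were chosen would set it. Whether the counting used strand is not given in the sources used here, so the levels of the overlapping pairs are uncertain. The longest transcript of the genes (78 of 84 matched) had a median of 2098.5 bases, beside 3034 over all tested genes, and a median GC content of 55.73% beside 49.97%.

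**Figure D5:**
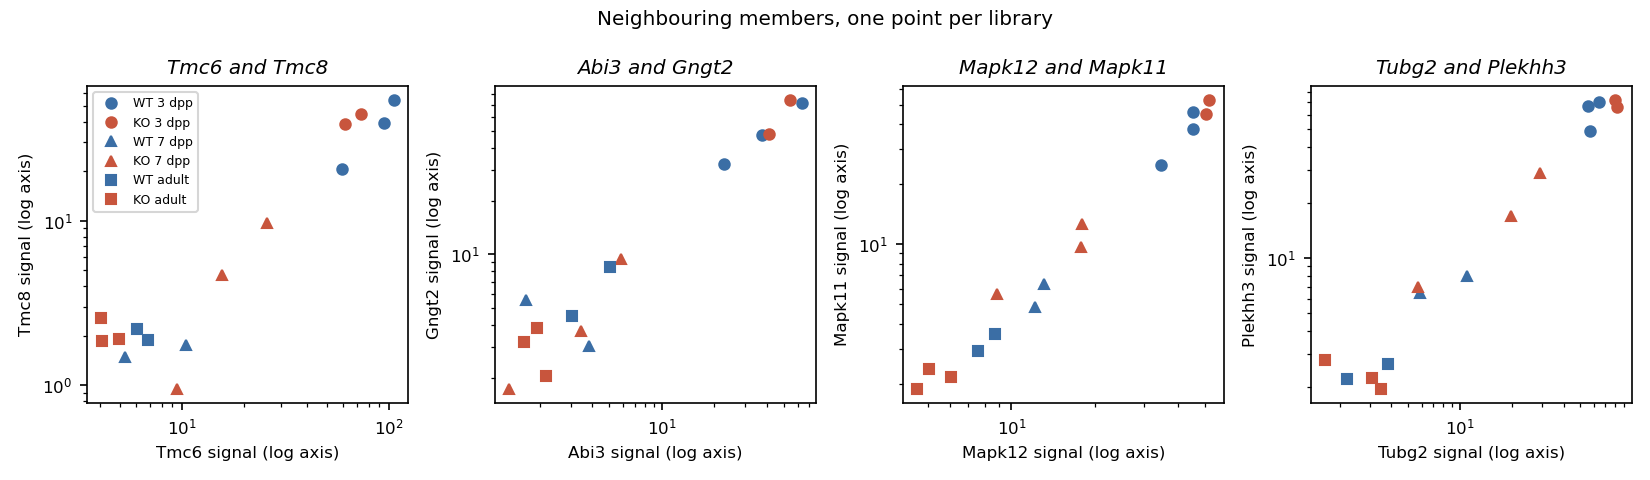
Signal of the 4 pairs of adjacent genes plotted against each other on log axes, 1 point per library (blue WT, red KO; circles 3dpp, triangles 7dpp, squares adults). The 5 libraries at 3dpp lie at the top right in each panel, and for Tmc6 and Tmc8 and for Tubg2 and Plekhh3 KO libraries 5 and 6 lie between them and the other libraries.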

How the data were processed

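The submitters' processing notes name the build mm10 and, as tools of the authors, kallisto, Trim Galore and DESeq2, without versions or roles. The gene annotation is not given in the sources used here. A signal per gene and library was deposited by the authors, which behaves as a TPM value (scaled for transcript length) times 1 factor per library, so levels compare between genes and depth is unknown. Values were tested as log2(signal + 1) with limma-trend 3.58.1 in R 4.3.3, for the 17746 genes that reached a signal of 1 in 2 or more libraries. All 15 libraries entered 1 model with 6 group means (9 residual degrees of freedom), and p-values were adjusted over all tested genes by Benjamini-Hochberg. The log2(signal + 1) scale understates changes of low genes. The members, lists and role groups were chosen with earlier results of these data known. Named genes follow a rule on level, ratio, spread, list membership and size of change. A further 22 names were converted to dates in the files. The fit was tested on simulated data. Positions and promoters came from RefSeq (GRCm38.p6), and transcript lengths and GC content from GENCODE transcripts.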

Additional observations from a re-analysis of the deposited data

How the results depend on the processing

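The number of genes meeting the rule was 219 with a fold of 2, 29 with a fold of 5, 55 with a minimum mean of 20 and 22 when every 3dpp library had to reach 3 times every later library of its genotype. Leaving out 1 library gave 67 to 106 genes. With 1 library left out and at least 2 kept in every group, 0 to 1 genes passed between genotypes at 3dpp. Without WT library 14, 1 was higher, beside 285 higher and 577 lower of all 17650. Without WT library 15, 1 was lower, beside 860 higher and 1072 lower of 17698. At 7dpp 0 to 13 passed, the 13 without KO library 4, beside 86 higher and 20 lower of 17688. In adults 0 to 1 passed. There 1 was lower without KO library 4 of 7dpp, beside 22 higher and 26 lower of 17688. Likewise 1 was lower without KO library 10, beside 52 higher and 744 lower of 17590. For the averaged difference 0 to 5 passed, the 5 without KO library 4, beside 141 higher and 144 lower of 17688. Between adults and 7dpp in WT 10 to 17 passed. In the main fit the WT number was 10, all lower, beside 2169 genes lower and 3157 higher of all 17746. With a pseudocount of 0.1 it was 16 (14 lower and 2 higher), beside 2172 lower and 3044 higher. With quantile normalisation it was 27, all lower, beside 3369 lower and 2467 higher. With only the libraries compared in the fit it was 23 (21 lower and 2 higher), beside 1938 lower and 2913 higher of 16232. Apart from the smaller fit, the cause was not tested. The log2 difference of Lad1 at 3dpp was reversed without KO library 16, from -0.46 to 0.17, and was -1.09 without KO library 18; Centg1 passed at -1.01 without WT library 15. Of the values of counts, 137 stayed within 1.5 times of those reported and 17 did not. The other 130 values for named genes kept their sign and their side of the threshold. Several of their sizes moved by over 1.5 times without a single 3dpp library. No paired analysis was possible because the library numbers are unique and no 2 groups share a number. Groups of 2 or 3 libraries limit what can pass, and without read numbers no counting interval can be given.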
